A study of Mus musculus with 6 samples.

Results

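Axon guidance genes encode the secreted and membrane-bound cues that steer growing axons, and the receptors that read them. They were taken as the mouse protein-coding genes whose symbols name a semaphorin, plexin, neuropilin, Eph receptor, ephrin, Slit, Robo, netrin, netrin-G, DCC or UNC5 family member, which gave 71 of the 21440 RefSeq protein-coding genes with a known strand. The rule used gene symbols only and no measured value. The genes comprised 14 Eph receptors, 8 ephrins, 7 Slits and Robos, 11 netrins and netrin receptors, 11 plexins and neuropilins, and 20 semaphorins.

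AGO2 binding was measured by chimeric eCLIP, in which RNA crosslinked to AGO2 is immunoprecipitated (IP) and part of it is ligated to the miRNA in the same complex, so that a chimeric read names a miRNA and its target. The IP libraries came from whole brains of C57Bl/6J mice at postnatal day 0, 1 from WT and 2 from *Mov10* Deletion. Per the study, *Mov10* Deletion mice came from floxed *Mov10* mice that carried *Emx1*-driven Cre, which acts in excitatory neurons of neocortex and hippocampus, crossed with a *Mov10* heterozygous mutant. The libraries sampled whole brain and so also cells in which this Cre does not act. MOV10 is an RNA helicase that binds AGO2 and 3'UTRs. A single WT library allows no test between genotypes, and the intervals given cover counting error alone.

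AGO2, guided by a miRNA, binds mRNAs mainly through pairing with nucleotides 2 to 8 of the miRNA, the seed, and reduces their translation or stability. In axon guidance, semaphorins signal through plexins and neuropilins, ephrins through Eph receptors, Slits through Robos, and netrins through DCC and UNC5. The levels of these receptors set how a growth cone answers a cue.

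An AGO2 cluster, a stretch of piled-up IP reads, was called enriched when its deposited log2 IP over input and its −log10 p were both at least 3. The libraries differed in what this took. Reads inferred from the deposited values showed that over 1 input read an enriched cluster had at least 16 IP reads in WT, but 9 and 8 in *Mov10* Deletion replicates 1 and 2. The *Mov10* gene itself had 1 enriched cluster in WT (log2 4.0) and 0 in each *Mov10* Deletion library, which measures binding and does not check the deletion. Of 8 neuronal marker genes, 8 had target clusters in each library. An enriched cluster was found in 3 of them in WT, 6 in replicate 1 and 5 in replicate 2. Of 5 marker genes from outside the brain, 0 had an enriched or a target cluster in any library. Target clusters in WT also lay in 3 of 6 progenitor and radial glia markers and 2 of 6 oligodendrocyte lineage markers. They lay in 2 of 4 astrocyte markers, 2 of 4 endothelium and blood markers and 0 of 4 microglia markers. Over all protein-coding genes 28.5%, 34.1% and 24.1% had a target cluster in WT, replicate 1 and replicate 2. Enriched clusters were found in 12.6%, 29.3% and 23.0%. In the same order, 0, 5 and 2 progenitor and radial glia markers were enriched, and 1, 4 and 2 oligodendrocyte lineage markers. For astrocyte markers it was 1, 3 and 2, for endothelium and blood 1, 2 and 2, and for microglia 0, 0 and 1. The neuronal miR-124-3p took 42.2% of all miRNA assignments in WT, and the liver miRNA miR-122-5p took 0 of 22074, which allows at most 0.0167% (exact 95% interval). miR-122-5p took 1 of 30526 in replicate 1 and 0 of 13468 in replicate 2. The blood miRNA miR-451a took 5 in WT, 23 in replicate 1 and 10 in replicate 2.

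The miRNAs whose shares or sites are given further on are shown 5′ to 3′ from RefSeq (GRCm38.p6), with the seed in capitals, because the matches in those sites are to these letters.
miR-9-5p: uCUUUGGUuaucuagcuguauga
miR-125b-5p: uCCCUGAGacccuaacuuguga
let-7c-5p: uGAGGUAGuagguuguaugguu
miR-128-3p: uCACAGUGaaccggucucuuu
miR-17-5p: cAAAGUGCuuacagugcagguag
miR-26a-5p: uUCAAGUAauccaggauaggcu
miR-30c-5p: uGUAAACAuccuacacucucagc
miR-153-3p: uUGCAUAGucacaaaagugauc
miR-19b-3p: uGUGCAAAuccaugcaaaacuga
The let-7 assignments on these genes came from 9 miRNAs with 1 shared seed, and miR-17-5p shared its seed with miR-20a-5p, miR-93-5p and miR-106b-5p. The sequences of miR-124-3p, miR-466i-5p and miR-466f-3p were not used here, and no seed was searched for them.

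AGO2 bound many of these genes. An enriched cluster was present in 36 of the 71 genes in WT, where 12.6% of all protein-coding genes had one. The count was 54 in *Mov10* Deletion replicate 1, against 29.3% of all genes, and 51 in replicate 2, against 23.0%. In the *Mov10* Deletion pair, that is in replicates 1 and 2 alike, it was 48, or 67.6% of the genes against 17.4% of all genes, and 34 genes had an enriched cluster in all 3 libraries, against 9.72% of all genes. The *Mov10* Deletion libraries had nearly the same list of clusters. In these genes 10982 of the 10991 clusters of replicate 1 (99.9%) had identical coordinates in replicate 2, and 0 did in WT. Agreement within the pair is therefore agreement of values over nearly 1 set of places, and whether the clusters were called jointly is not stated in the sources used here.

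These genes are long, and long genes hold more clusters. Their median length was 53374 nt, against 17547 nt over all protein-coding genes. Among genes of at least 100000 nt, 23 of 33 axon guidance genes were enriched in WT against 36.7% of all genes of that length, and 27 of 33 in both *Mov10* Deletion libraries against 58.1%. Per cluster the picture differed. In WT 1.59% of the AGO2 clusters in these genes were enriched (exact 95% interval 1.3 to 1.92%), below the 2.07% (2.02 to 2.12%) of other genes, and in replicate 1 the shares were 4.14% (3.77 to 4.53%) and 5.16% (5.1 to 5.21%). In replicate 2 the intervals overlapped, with 2.85% (2.54 to 3.18%) and 3.08% (3.03 to 3.12%).

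**Figure D1:**
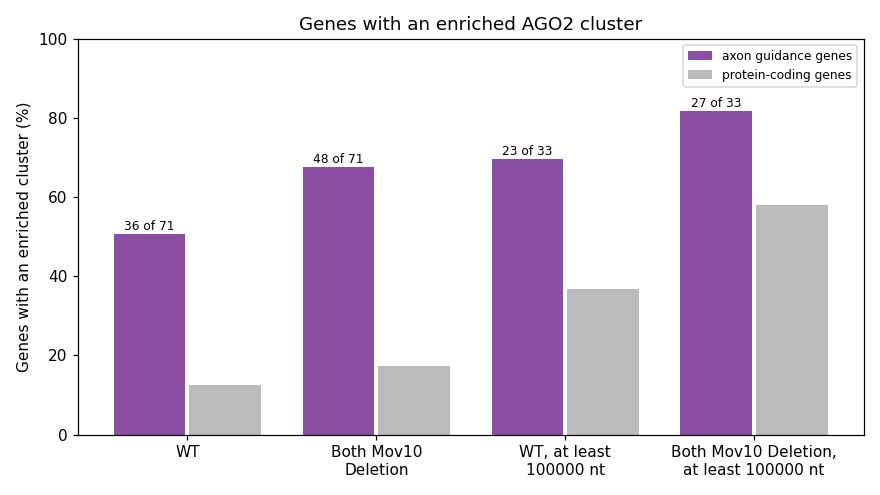
Bars show the percentage of genes with at least 1 enriched AGO2 cluster (vertical axis, %), for the axon guidance genes and for all protein-coding genes, first over all lengths and then among genes of at least 100000 nt. The axon guidance genes stood above the other bar in each of the 4 comparisons, by less among long genes.

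The families differed in how many members were bound. Of the 13 semaphorins of classes 4 to 7, which are mostly membrane-bound, 11 had an enriched cluster in WT, with 33 enriched clusters in all. Of the 7 secreted class 3 semaphorins only *Sema3a* had one, a single cluster, although the median class 3 gene was longer (155453 nt against 27886 nt). That count is near the share of all genes in WT, 12.6%. In replicates 1 and 2, 4 and 1 class 3 genes were enriched, against 29.3% and 23.0% of all genes. Of the other classes 11 and 12 genes were. Class 3 genes held 0 target clusters in WT, 5 in replicate 1 and 3 in replicate 2, where the other classes held 50, 56 and 26. They also held fewer AGO2 clusters of any kind (101 in WT, against 773), and whether less RNA or less binding gave this cannot be told apart, as fewer cells of a type and less RNA per cell cannot be in a whole brain.

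Among receptors and ligands the pattern was uneven, where 12.6% of all genes were enriched in WT. All 3 ephrin-B genes, which encode transmembrane ligands, were enriched in every library, and 2 of 5 GPI-anchored ephrin-A genes were enriched in WT. Of the 9 plexins 5 were enriched in WT, and of the 9 EphA and 5 EphB receptors 3 and 2 were. *Robo1* and *Robo2* were enriched in all 3 libraries and *Robo3* and *Robo4* in none. The first 2 are 1019974 and 1555468 nt long, and *Robo3* and *Robo4* are 17392 and 12122 nt long. Of netrins 1, 3, 4 and 5, 0 were enriched in WT, which in 4 genes is near the share of all genes. In replicates 1 and 2, 1 and 2 of them were. Of the 4 UNC5 receptors 3 were enriched in WT, 4 in replicate 1 and 3 in replicate 2. Median length was 57729 nt for these netrins and 219174 nt for the UNC5 genes. No AGO2 cluster of any kind was found in *Epha1*, *Robo3*, *Efna1*, *Plxnb3* and *Sema3b*, and 14 genes had no enriched cluster in any library.

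**Figure D2:**
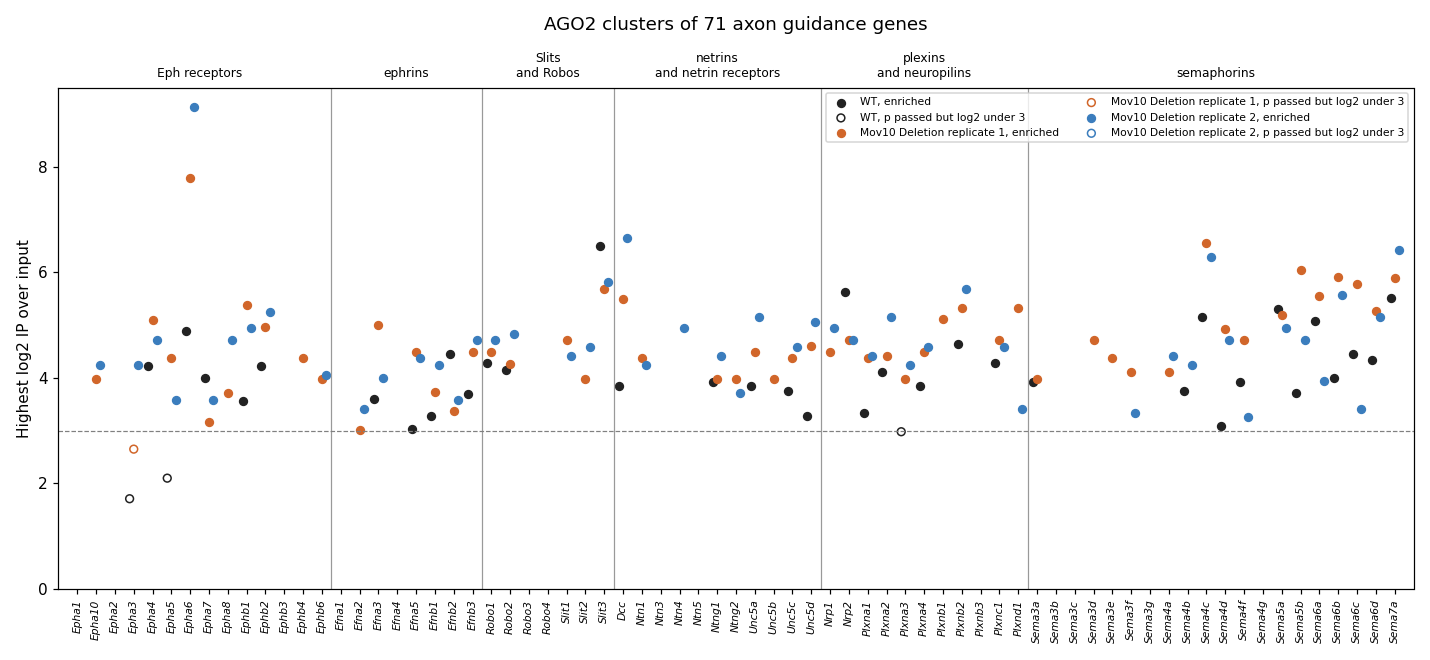
Each point is the highest log2 IP over input (vertical axis) among the clusters of 1 gene that passed the p threshold in 1 library, for the 71 genes grouped by family. Filled points are enriched clusters, open points have a log2 under 3 (dashed line), and genes with no point had no cluster that passed. *Epha6* reached 9.14 in *Mov10* Deletion replicate 2, in a cluster 4 nt wide for which no reads were inferred.

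Of the 34 genes enriched in all 3 libraries, the 8 with the highest lowest-library log2 are described first. Among these 8, *Sema7a*, *Sema4c* and *Plxnb2* had their strongest clusters in the 3'UTR in each library. Other genes of the 34 did too, among them *Efna3*, *Efnb2* and *Plxnc1*. *Sema7a*, which encodes a GPI-anchored semaphorin, reached a log2 of 5.51 in WT (95% interval 3.62 to 8.58, from 108 IP and 2 input reads), 5.9 in replicate 1 (4.65 to 7.54) and 6.42 in replicate 2 (3.85 to 11.77). *Sema4c*, a transmembrane semaphorin that signals through plexin-B2, reached 5.15 (3.57 to 7.45), 6.55 (4.01 to 11.88) and 6.3 (3.72 to 11.65) at 1 place. The receptor gene *Plxnb2* reached 4.65 (3.26 to 6.55), 5.32 (4.06 to 6.97) and 5.68 (3.74 to 8.77), again at 1 place. In *Sema4c* and *Plxnb2* the intervals of the 3 libraries overlapped. In *Sema7a* the strongest cluster of replicate 2 lay inside that of WT, and that of replicate 1 lay elsewhere in the 3'UTR.

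For *Slit3*, *Sema5a*, *Epha6*, *Nrp2* and *Sema6d* the strongest cluster lay in an intron in at least 1 library. *Slit3* is the clearest case. Its strongest clusters, at a log2 of 6.5 in WT, 5.69 in replicate 1 and 5.81 in replicate 2, were 11 to 13 nt wide and lay on *Mir218-2*, the miRNA gene in a *Slit3* intron (mm10 chr11:35616816-35616925, plus strand). In WT the strongest was chr11:35616838-35616850, and 3 adjoining clusters together spanned chr11:35616838-35616867. Each strongest cluster overlapped part of the mature miR-218-5p at chr11:35616840-35616860, shown here for that reason.
miR-218-5p: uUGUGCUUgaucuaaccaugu
In *Slit2*, which holds *Mir218-1*, the clusters on the miRNA gene had at most 6 inferred IP reads and were not enriched in any library. *Slit3* stayed enriched in all 3 libraries without the clusters on *Mir218-2*, and across the 71 genes the counts of enriched genes were the same without clusters on miRNA genes.

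*Epha6* stood apart. At chr16:59842778-59842806, 29 nt in an intron, it reached a log2 of 7.79 in replicate 1 and 9.14 in replicate 2, while WT had clusters there with a log2 of at most 0.76. No annotated miRNA gene lies there. The strongest cluster there was only 7 nt wide in replicate 1 and 4 nt wide in replicate 2. No reads could be inferred for either, so their values have no interval. *Epha6* also carried a cluster elsewhere in an intron that was enriched in all 3 libraries, with a log2 of 4.89 in WT, 3.91 in replicate 1 and 4.06 in replicate 2, and this one held a miR-124-3p target cluster in each library.

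A further 14 genes were enriched in the *Mov10* Deletion pair but lacked an enriched cluster in WT, 19.7% of the genes against 7.68% of all genes. The opposite, WT without either *Mov10* Deletion library, was found for 0 genes, against 0.676% of all genes. The 8 with the highest values were *Nrp1*, *Slit1*, *Ntn1*, *Sema4a*, *Epha10*, *Ephb6*, *Plxna3* and *Slit2*. *Nrp1*, a co-receptor for class 3 semaphorins, reached 4.5 in replicate 1 and 4.95 in replicate 2, from 13 IP reads over 1 input read in each. *Ntn1*, the attractant netrin-1, reached 4.38 and 4.25 from 12 and 8 IP reads. In these 8 genes the best clusters of the *Mov10* Deletion libraries rested on 8 to 15 IP reads, and none of the 8 had its best cluster at the same place in both libraries. In *Plxna3*, a semaphorin receptor gene, WT had a cluster just under the threshold, with a log2 of 2.98 from 56 IP reads. At the same place the log2 was 2.82 in replicate 1 (57 IP reads) and 1.93 in replicate 2 (24 IP reads), enriched in neither.

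None of these 14 genes met an equal read minimum in both *Mov10* Deletion libraries, and 5 met it in one of them (*Nrp1*, *Plxnd1*, *Slit1* and *Slit2* in replicate 1 and *Sema3f* in replicate 2). At least 16 inferred IP reads were then required in every library, and clusters with no inferred reads were kept at −log10 p of at least 20. So counted, 21 of the 71 genes stayed enriched in the *Mov10* Deletion pair, against 6.67% of all genes. Of these, 0 lacked WT, and *Plxnc1*, *Sema3a* and *Sema4b* were enriched in WT only. This minimum is the WT floor given above, so WT stayed at 36 genes and only the *Mov10* Deletion libraries lost any. An IP read over 1 input read was a fold of 0.845 in WT, but 1.74 and 2.386 in replicates 1 and 2. Equal reads therefore stood for a higher log2 in *Mov10* Deletion. At this setting 1.13% of all genes were enriched in the pair but not WT, and 2.65% in WT but neither library of the pair. Median cluster width was 67 nt in WT and 53 nt in the shared *Mov10* Deletion list, and in other genes it was 69 nt and 55 nt.

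Enriched places were shared more often in 3'UTRs. Of the 46 WT enriched clusters in 3'UTRs of these genes, 52.2% (36.9 to 67.1%) overlapped an enriched cluster of both *Mov10* Deletion libraries, and of the 52 in introns 21.2% (11.1 to 34.7%) did. In other genes these shares were 42.0% and 28.7%. Introns held 52.0% of the WT enriched clusters (41.8 to 62.1%), 72.9% of those of replicate 1 and 70.0% of those of replicate 2. Other genes also had more in the *Mov10* Deletion libraries, with 46.3%, 62.3% and 63.6%.

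The miRNA side gave 329 assignments on 47 genes in WT, where 28.5% of all genes had a target cluster. It gave 470 on 51 genes in replicate 1, against 34.1% of all genes, and 175 on 45 genes in replicate 2, against 24.1%. In all 3 libraries 38 genes had a target cluster, against 17.1% of all genes, and 15 genes had none in any library. *Dcc*, the netrin-1 receptor, held the most, with 29, 49 and 20 target clusters, followed by the Slit receptor *Robo2* with 23, 43 and 11. *Unc5d*, *Plxna4*, *Plxna2*, *Sema6d*, *Robo1*, *Ephb1*, *Unc5c* and *Epha5* came next, with 54 to 28 over the libraries together. Length alone did not order them: *Plxna2* is 197079 nt long and held 49, while *Epha6* (969479 nt) held 14 and *Sema3a* (478664 nt) held 2.

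miR-124-3p, the most abundant miRNA of neurons, took the largest share in each library. It made up 41.0% of the assignments on these genes in WT (35.7 to 46.6%), 36.2% in replicate 1 (31.8 to 40.7%) and 36.0% in replicate 2 (28.9 to 43.6%). The other genes gave 43.6%, 35.6% and 37.9%, within these intervals. miR-466i-5p took 6.99% (4.48 to 10.3%), 7.66% (5.42 to 10.4%) and 11.4% (7.12 to 17.1%). Its share in other genes, 4.06%, 5.47% and 5.9%, lay below the interval in WT and replicate 2 and inside it in replicate 1. miR-466f-3p took 5.47% in WT (3.27 to 8.51%), 2.13% in replicate 1 (1.02 to 3.88%) and 2.29% in replicate 2 (0.626 to 5.75%). Other genes gave 2.39%, 1.44% and 1.11%, below the interval in WT only. miR-9-5p, a regulator of neural progenitors, took 7.6%, 6.38% and 5.14%, against 9.31%, 6.71% and 6.92% in other genes. miR-125b-5p took 5.47%, 4.26% and 3.43%, against 6.23%, 5.6% and 5.55%. For both miRNAs the other genes lay inside the intervals.

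Target clusters of these genes lay in introns more often than those of other genes. Introns held 54.1% of the WT assignments with a known place (48.1 to 60.1%), 65.7% in replicate 1 (60.8 to 70.4%) and 53.8% in replicate 2 (45.3 to 62.1%), against 33.5%, 43.1% and 41.5% in other genes. Coding exons held 6.45%, 8.95% and 10.3%, against 21.0%, 21.5% and 22.3%. The 3'UTR shares were 38.7%, 24.0% and 33.8%, against 42.4%, 31.9% and 32.7%, and only in replicate 1 was the share of other genes outside the interval (19.9 to 28.6%). The length of these genes moves with this result, and its part was not tested.

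**Figure D3:**
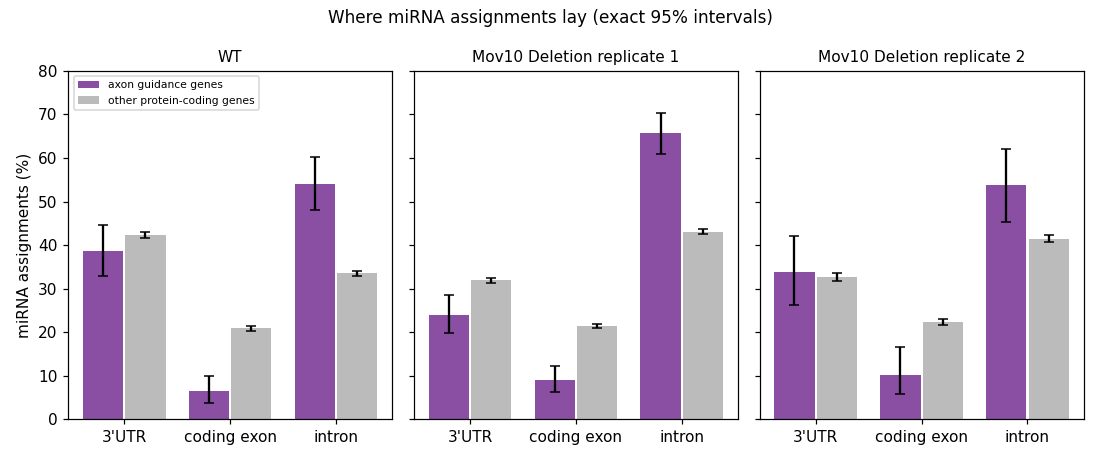
Bars show the percentage of miRNA assignments (vertical axis) in 3'UTRs, coding exons and introns, for the axon guidance genes and the other protein-coding genes in each library, with exact 95% intervals. The intron bars of the axon guidance genes lay between 53.8% and 65.7%, above the other genes in each library.

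Target clusters in 3'UTRs coincided with AGO2 enrichment more often than those in introns. In WT 30.3% of the 3'UTR target clusters (20.2 to 41.9%) and 6.38% of the intron ones (2.96 to 11.8%) lay on an enriched AGO2 cluster. The shares were 31.2% and 4.56% in replicate 1, and 36.6% and 5.13% in replicate 2. Over all places 12.3% of the WT target clusters did (8.71 to 16.7%), 9.93% in replicate 1 (7.22 to 13.2%) and 13.9% in replicate 2 (8.99 to 20.1%). Other genes had the same order, with 25.3% in 3'UTRs and 8.26% in introns in WT, 24.5% and 5.16% in replicate 1, and 23.4% and 5.21% in replicate 2.

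Part of the assignments could be checked against sequence, in 3'UTRs 57 of 108 in WT, 53 of 94 in replicate 1 and 21 of 49 in replicate 2, since no seed was searched for the others. Of those searched, 54.4% held a match to the 7-nt seed of the assigned miRNA in WT (40.7 to 67.6%), 41.5% in replicate 1 (28.1 to 55.9%) and 42.9% in replicate 2 (21.8 to 66.0%). Other genes gave 46.9%, 33.4% and 33.2%. In the 3'UTR clusters of all genes and libraries a let-7 match (CTACCTC) was found in 33.9% of the clusters assigned to let-7 and in 0.883% of those assigned to other miRNAs. Over the 8 miRNAs examined the share in their own clusters ran from 22% for miR-125b-5p (CTCAGGG) and 23.4% for miR-9-5p (ACCAAAG) to 72.9% for miR-30c-5p (TGTTTAC), and in the clusters of other miRNAs from 0.532% to 1.87%. A match is a description of the letters in the cluster and not a proof of pairing.

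*Sema4c* held matches for 3 seed groups side by side. Its 3'UTR target cluster (chr1:36549398-36549493 in WT, minus strand, mm10) lay under the enriched cluster described above. It was assigned to several miRNAs, and those with a 7-nt match follow. In WT these were miR-125b-5p (score 10.78), miR-19b-3p (8.98), let-7a-5p (3.72), let-7i-5p (3.0) and miR-125a-5p (3.0). In replicate 1 they were miR-19b-3p (10), let-7b-5p (5.07), miR-125b-5p (4.65) and let-7e-5p (3.67), and in replicate 2 let-7d-5p (4.0). The score is the authors' and its meaning is not described. The matches, in capitals, lay 837, 821 and 817 nt from the gene's end, and those of let-7 and miR-125b-5p share letters. The sites are from GRCm39 chr1:36588554-36588577, chr1:36588538-36588561 and chr1:36588534-36588557.
miR-19b-3p site: ggtgcactcttaactTTTGCACag
let-7 site: ttgcacaggcaccagCTACCTCag
miR-125b-5p site: acaggcaccagctacCTCAGGGac

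*Nrp2*, which encodes the co-receptor neuropilin-2, had separate places in 2 annotated 3'UTRs. About 22 kb before the gene's end, in the 3'UTR of a shorter transcript, a target cluster (chr1:62796533-62796627 in WT, plus strand) was assigned to miR-128-3p in all 3 libraries, with scores of 28.02, 50.08 and 19.3. The strongest AGO2 cluster on it had a log2 of 5.63 in WT (3.74 to 8.69), 4.28 in replicate 1 (3.08 to 5.78) and 4.28 in replicate 2 (3.06 to 5.8). The same place was also assigned to miR-466i-5p in each library, with scores of 18.98, 5.26 and 3.81. The miR-128-3p match lay 22124 nt from the gene's end (GRCm39 chr1:62835707-62835730).
miR-128-3p site: agggagagactgattCACTGTGga
In the 3'UTR at the gene's end, 1607 nt from it, a miR-124-3p cluster (chr1:62816928-62817086 in WT) had scores of 76.26, 33.01 and 17.77.

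*Epha4*, a receptor for both ephrin classes, was assigned to the miR-17 seed group in all 3 libraries at 1 place of its 3'UTR (chr1:77373630-77373728 in WT, minus strand). miR-17-5p had scores of 17.6, 16.49 and 6.78, and let-7c-5p, with a 6-nt match in the same cluster, had 15, 7.0 and 7.23. The AGO2 cluster there had a log2 of 4.0 in WT (2.73 to 5.66), 5.1 in replicate 1 (3.69 to 7.01) and 3.88 in replicate 2 (2.62 to 5.41). *Sema7a* held a miR-17-5p match 41 nt from its end, with scores of 8.38, 5.53 and 3.67. The sites are from GRCm39 chr1:77350313-77350336 and chr9:57870087-57870110.
*Epha4* miR-17-5p site: gtttacctcatccatGCACTTTaa
*Sema7a* miR-17-5p site: ttatctcttctcaatGCACTTTaa

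Further 3'UTR sites held matches in other members. *Efna3* held a miR-153-3p match on an enriched cluster in WT and replicate 1, with scores of 10.38 and 4.78, and *Plxna1* a miR-30c-5p match with scores of 9.76 and 10.8 in the same libraries. In *Plxna2* a miR-26a-5p match was assigned in all 3 libraries, with scores of 9.39, 6.0 and 4.0. The same place was assigned to miR-124-3p in each library (7.45, 4.0 and 5.66) and to miR-30c-5p in WT and replicate 1. Its AGO2 log2 was 2.31, 2.44 and 3.19, enriched in replicate 2 only. The sites are from GRCm39 chr3:89221978-89222001, chr6:89294221-89294244 and chr1:194495561-194495584.
*Efna3* miR-153-3p site: ctgtgaagacaggacCTATGCAac
*Plxna1* miR-30c-5p site: gcactttagcatttcTGTTTACat
*Plxna2* miR-26a-5p site: gtttacagtaagcaaTACTTGAag

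Over the 71 genes, overlapping target clusters of 1 miRNA were merged into 785 places, of which 42 (5.35%) had a target cluster in all 3 libraries. These lay in 21 genes, and 28 of them were places of miR-124-3p and 5 of miR-466i-5p. Of the 42, 22 were in 3'UTRs of 15 genes, 8 in introns, 3 in coding exons and 9 could not be placed. In 3'UTRs 12.9% of the places (8.29 to 18.9%) were found in all 3 libraries, and in introns 1.88% (0.816 to 3.68%).

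The highest scores were in *Plxnb2*, 382 nt from the gene's end, where miR-124-3p had scores of 120.79 in WT, 69.06 in replicate 1 and 51.66 in replicate 2. The miR-124-3p place of *Nrp2* given above came next by WT score, and then an intron place of *Plxna2* with 54.33, 44.09 and 18.75. *Efnb3*, which encodes the transmembrane ligand ephrin-B3, had 37.56, 18.69 and 21.93, on a cluster enriched in each library (log2 3.69, 3.71 and 4.01). *Sema6a*, a transmembrane semaphorin, had 35.98, 20.9 and 4.62 and log2 values of 5.08, 5.55 and 3.95. In *Efnb2* a coding-exon place had scores of 40.62, 43.59 and 23.66. The WT score was the highest of the 3 in 25 of the 42 places. Of the 42, 9 had target clusters that overlapped an enriched AGO2 cluster in all 3 libraries, and 20 in none. The *Nrp2* miR-124-3p place is not among the 9, since its target cluster in replicate 1 did not overlap the enriched cluster found elsewhere in the merged place. In *Unc5c*, an intron place with 319 inferred IP reads in WT reached a log2 of 2.9 there, just under the threshold. It reached 2.47 in replicate 1 and 2.43 in replicate 2.

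**Figure D4:**
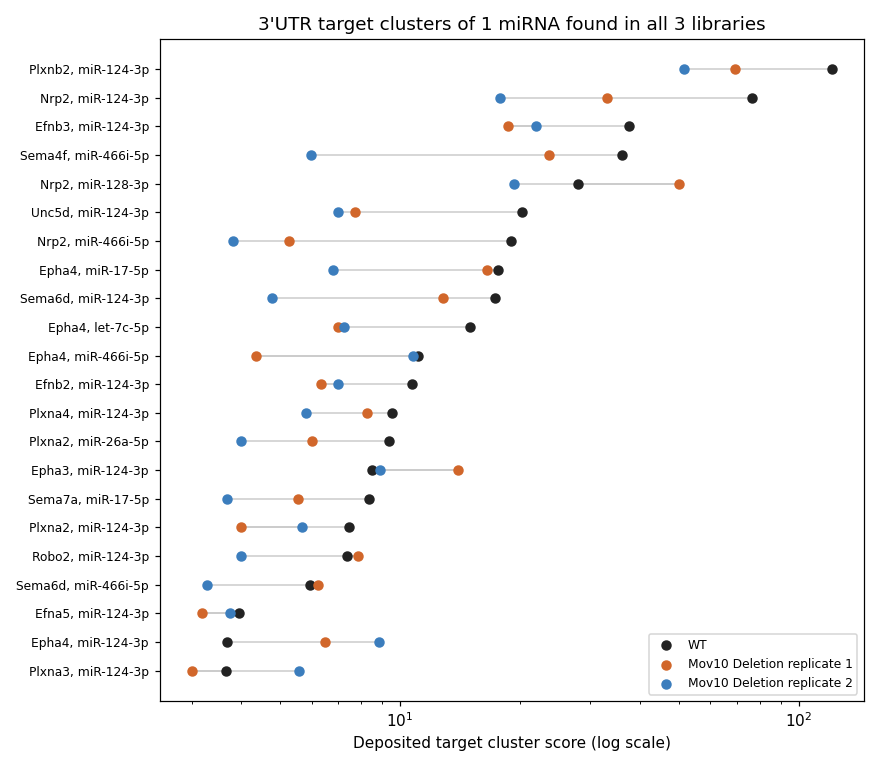
Each row is 1 of the 22 3'UTR places where the same miRNA had a target cluster in all 3 libraries, and points are the deposited scores (horizontal axis, log scale). Scores ranged from 3.0 to 120.79, and the *Plxnb2* place was highest in each library.

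How often a WT place was found again moved with its score. Of the WT places, 37.1% (31.9 to 42.6%) had a target cluster of the same miRNA in a *Mov10* Deletion library. The share was 18.8% (13.5 to 25.0%) for scores below 5 and 63.4% (54.7 to 71.6%) for scores of at least 5. Counted by assignment, 37.7% of those on these genes and 38.3% of those on other genes were found again.

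Further genes of the pathway were counted in the same way. Of 78 genes of co-receptors, adaptors, GTPase regulators, GTPases, effectors and cytoskeletal proteins, 36 were enriched in WT, where 12.6% of all genes were, and 60 in the *Mov10* Deletion pair, where 17.4% were. Gene length was not matched here. The GTPase regulators, which include the guidance factors *Trio*, *Kalrn* and *Srgap1*, had 12 of 20 enriched in WT. Of the 14 GTPases and effectors only *Rock2* and *Ssh1* were enriched in WT, a share near that of all genes, and *Rhoa*, *Cfl1* and *Rnd1* were not enriched in any library. Of the co-receptors and further cues, 9 of 18 were enriched in WT, among them *L1cam*, *Dscam* and *Neo1*.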

How the data were processed

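AGO2 chimeric eCLIP clusters of 3 IP libraries from frozen brains were analysed. The size-matched inputs were used only as part of the deposited ratios. Per the submitters' processing notes the authors used cutadapt 3.2, UMI-tools 1.1.1, STAR 2.7.7a and Bowtie 1.2.3, with mm10. For each AGO2 cluster the authors deposited the log2 of the IP over input fold. They deposited the p-value as its −log10, which stopped at 400. Each target cluster was deposited with a miRNA and a score of at least 3, whose meaning is not given in the sources used here.

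Clusters were assigned to RefSeq gene bodies of GRCm38.p6 (the mm10 assembly) on the same strand. Strands came from the RefSeq promoter table or GENCODE vM39 and were known for 21440 of 21900 genes. Regions and seed matches were read from GRCm39 by distance from promoter sequences found once in it (32016 of 32817). No coordinate was converted. Enriched and target clusters of *Dcc*, *Sema6a* and *Epha5* were not placed, nor were the strongest clusters of *Sema3a*. Clusters not placed are left out of the shares by region and by seed match.

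Total depth is unknown. IP and input reads were inferred from each deposited ratio and p-value, trying up to 60 input reads and accepting a −log10 p within 0.001. A pair was found for at least 97.0% of the enriched clusters in each library, and in simulated clusters at least 99.98% were recovered. The simulated p-values came from the same formula as the inference, so this recovery does not check that the authors used that formula. The inferred reads are model values, not the authors' counts. Intervals are exact Clopper-Pearson 95% intervals. Python 3.11.15, pandas 2.3.3 and scipy 1.17.1 were used.

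Members, lists and alternatives were chosen with earlier results of these data known. Genes named were the 8 with the highest lowest-library log2 among those enriched in all 3 libraries, the 8 likewise ranked among those enriched in the *Mov10* Deletion pair only, the 10 with the most target clusters, and those with 1 miRNA at 1 place in all 3 libraries. *Efna3*, *Plxna1*, *Sema3a* and the genes named beside family and list counts were chosen after their values were seen.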

Additional observations from a re-analysis of the deposited data

How the results depend on the processing

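Of 57 values under alternative settings, 35 stayed within 1.5 times the count or within the interval of the share, and 22 moved beyond that. Counts and shares have no sign, so none could be called reversed. The order of the pair-only and WT-only counts did turn over. These were 14 and 0 in the main setting, but 0 and 3 with at least 16 inferred IP reads. Counts of genes moved most with the reads and the place required. With −log10 p of at least 5, the *Mov10* Deletion pair had 27 enriched genes, 4 of them not enriched in WT. With log2 of at least 4, 19 genes were enriched in WT, 30 in the *Mov10* Deletion pair and 2 in WT only (*Efnb2* and *Epha7*). With at least 16 inferred IP reads, 21 were enriched in the *Mov10* Deletion pair, 0 there but not in WT, and 3 in WT only. That minimum is the WT floor, so WT stayed at 36 and only *Mov10* Deletion libraries lost genes. In the last 2000 nt of the gene, 21 were enriched in WT, 15 in the *Mov10* Deletion pair, 2 there but not in WT and 2 in WT only, and 21 had a target cluster in the *Mov10* Deletion pair. Leaving out either *Mov10* Deletion library left 1 gene enriched in WT only, 16 to 19 genes enriched in *Mov10* Deletion and not in WT, 51 to 54 enriched in *Mov10* Deletion, and 45 to 51 with a target cluster there.

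The share of miR-124-3p in WT was 47.9% over clusters with a single miRNA and 49.7% over scores of at least 4. In replicate 1 it was 41.1% over clusters with a single miRNA and 31.7% in the last 2000 nt, and in replicate 2 it was 43.8% in the last 2000 nt. The share of target clusters on an AGO2 cluster was 21.8% in WT and 17.2% in replicate 1 at a log2 of at least 2. The causes were not tested. Leaving out clusters on miRNA genes or under 20 nt, both chosen after seeing the data, moved no count beyond this bound. No paired analysis was possible because 1 WT library leaves no test between the genotypes.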
